A study of Mus musculus with 14 samples.

Results

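The middle of a 14-day course of muscle overload was examined by setting the 4 arrays of days 7 and 10 (the late arrays) against the 4 arrays of days 3 and 5 (the early arrays), which together are 8 of the 14 arrays of the series. Each array held RNA of the plantaris, a calf muscle, from male C57BL/6J mice 25 months of age. In all 4 groups of arrays the muscle carried extra load after synergist ablation, an operation in which the gastrocnemius and the soleus, which normally share its work, are taken out. Each day was represented by 2 arrays, 1 with a pool of left and 1 with a pool of right muscles of 6 animals. Both pools of a day were taken to hold muscles of the same 6 animals, which the labels leave unsaid, and each day was a different set of animals, so that a difference between days and a difference between sets of animals cannot be told apart. P-values and standard errors (SE) therefore measure the spread between arrays of a day, which may be technical. They leave out the spread between days, except where the day is a random block or the fit has no day term. Day 0 and day 14 arrays enter below as reference points. No array is labelled as sham-operated, so against day 0 the surgery and the added load cannot be told apart. The series concerns the effect of age on hypertrophy, but all arrays analysed here are of old mice. RNA input is given as 100 ng in the design text and as 250 ng in the labelling protocol.

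In skeletal muscle, surgical overload and damage first bring in neutrophils and monocyte-derived macrophages. Satellite cells, the stem cells of muscle, then divide, differentiate and fuse, while fibroblasts lay down a new matrix. Regenerating fibres pass through a stage in which they make embryonic and neonatal contractile proteins and the fetal acetylcholine receptor.

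Values are log2 signals, on which a difference of 1 is a 2-fold difference. A gene was called where the moderated test of limma gave an adjusted p under 0.05 over all 19938 genes and the left and right pools moved in the same direction. Of these genes 2458 (12.3%) were higher and 2079 (10.4%) were lower on the late arrays. The difference reached 2-fold for 127 of the higher genes (0.637%) and for 67 of the lower genes (0.336%). The 4 late values lay above all 4 early values for 1924 genes (9.65%) and below them for 1947 genes (9.77%). The median change over all genes was -0.03 and the median standard error of a change was 0.069. With array medians made equal, the split was 2112 higher and 2719 lower. With the day, and so the set of animals, as a random block (consensus correlation 0.354), 587 genes were higher and 605 lower. Without day 3 the counts were 776 and 701, and without day 10 they were 1170 and 854, and no other day moved either count by over 1.5 times.

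The label of the tissue was checked on marker genes. The mean log2 signal of 6 muscle fibre markers (Acta1, Ckm, Mb, Myh4, Tnnt3 and Pygm) was 13.28 to 13.63 on the early arrays and 13.47 to 13.70 on the late arrays, and 1 of the 6 was called higher. All 3 neutrophil markers (S100a8, S100a9 and Csf3r) were lower, with a median of -1.19, as were all 3 adipocyte markers, with a median of -0.56. Both tendon markers, Tnmd and Scx, and 2 of 3 smooth muscle markers were higher. Of 3 macrophage markers (Cd68, Adgre1 and Csf1r) 0 were called by limma and 2 had an unadjusted p under 0.05, with a median of -0.22. In whole muscle, fewer cells of a type and less RNA per cell cannot be told apart. Across genes, the 2 sides of each day had an r of 0.997.

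The largest fall was that of Arg1, which encodes arginase 1, an enzyme of arginine breakdown that is made by wound macrophages. Its log2 signal in the left and right pools was 11.71 and 11.92 on day 3, 11.14 and 11.26 on day 5, 9.57 and 10.05 on day 7 and 8.43 and 8.25 on day 10. Every late value lay below every early value, and the lowest values were those of day 10. The fall was 5.4-fold, by 2.43 ± 0.11 on the log2 scale (SE from the spread within days, n = 4 arrays against 4). Its adjusted p was 6.9e-08, and 0.0092 with the day as a random block (limma). Cxcl2 and Cxcl3 encode chemokines that attract neutrophils, and Cxcr2 encodes their receptor. Cxcl2 stood at 10.09 and 10.50 on day 3, 9.08 and 9.32 on day 5, 7.42 and 7.50 on day 7 and 6.96 and 8.06 on day 10. Its change was -2.26 ± 0.20 (adjusted p = 6.6e-06, limma), and the right pool of day 10 was higher than the left one and above both arrays of day 7. Cxcr2 stood at 10.55 and 11.07 on day 3 and at 9.90 and 10.36 on day 5. It stood at 8.92 and 8.62 on day 7 and at 7.86 and 8.41 on day 10. Its change was -2.02 ± 0.17 with no overlap between early and late arrays (adjusted p = 4.8e-06, limma). With the day as a random block the adjusted p was 0.0099 for Cxcl2 and 0.0080 for Cxcr2 (limma).

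The other leading falls included further chemokine and myeloid genes. Cxcl3 changed by -2.02 ± 0.11, and Cxcl5, a further neutrophil chemokine gene, by -1.75 ± 0.10. Il1r2, the decoy receptor that binds interleukin 1 without signalling, changed by -1.62 ± 0.11. Trem1, a receptor that amplifies inflammatory signals in myeloid cells, changed by -1.59 ± 0.09. The Schlafen genes Slfn4 and Slfn1 changed by -1.68 ± 0.12 and -1.64 ± 0.11. Serpinb2, the plasminogen activator inhibitor 2, changed by -2.14 ± 0.14, the noncoding RNA gene Mirt2 by -1.88 ± 0.15, and Ero1a, an oxidase that drives disulfide formation in the endoplasmic reticulum, by -1.57 ± 0.08. For all 12 leading falls the early and late arrays did not overlap, which the rule that chose them required.

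**Figure D1:**
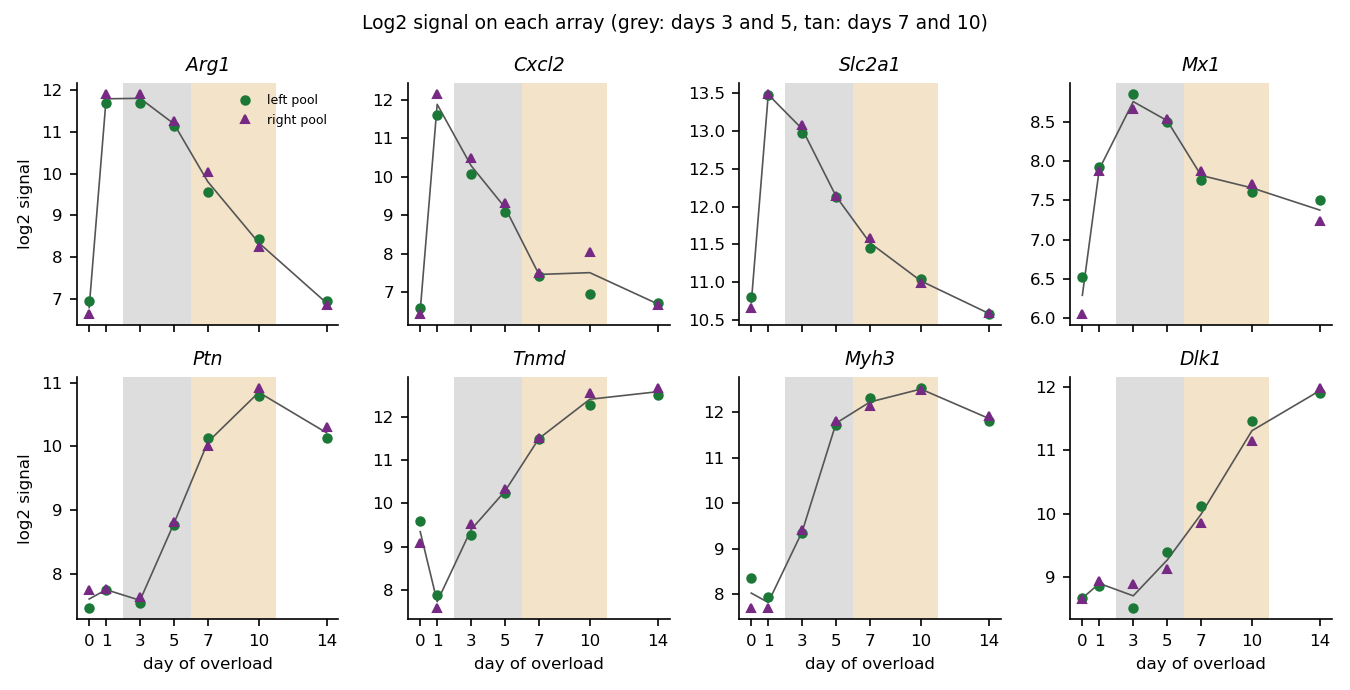
Log2 signal (vertical axis) on each of the 14 arrays against the day of overload (horizontal axis) for 4 genes that were lower on days 7 and 10 (Arg1, Cxcl2, Slc2a1, Mx1) and 4 that were higher (Ptn, Tnmd, Myh3, Dlk1). Circles are left pools, triangles right pools and lines their means; grey bands hold days 3 and 5 and tan bands days 7 and 10, and in each panel the 4 values in one band do not overlap the 4 in the other.

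Inflammatory chemokine and cytokine genes fell as a group. Of 22 such genes 18 were lower and 0 higher, with a median change of -0.74 against -0.03 over all genes (17 lower with the day as a random block). The 18 called genes include the cytokine genes Il6 and Il1b and the cyclooxygenase gene Ptgs2. Ccl2, the main chemoattractant of monocytes, stood at 12.20 and 12.14 on day 3, 11.76 and 11.95 on day 5, 11.08 and 11.56 on day 7 and 10.24 and 10.29 on day 10. Its change was -1.23 ± 0.09 (adjusted p = 2.9e-06, limma), and of its steps between sampled days that from day 7 to day 10 was the largest (-1.06). On the late days the list median was still 1.05 above day 0, against 2.35 on the early days.

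Neutrophil genes fell too, 10 of 12, with a median of -1.17 (5 with the day as a random block, 5 without day 3 and 5 without day 10). Clec4e, a lectin receptor that senses damaged cells, changed by -1.55 ± 0.17. Lcn2, the iron-binding lipocalin of neutrophil granules, changed by -1.16 ± 0.32, with an adjusted p of 0.0208 (limma) and overlapping groups. Of 8 granule genes of granulocyte precursors 1 (12.5%) was lower, near the 10.4% of all genes. It was Chil3 at -1.31 ± 0.25 (0 with the day as a random block, adjusted p = 0.0505, limma). On the late days the neutrophil list had a median of -0.65 relative to day 0, against 0.76 on the early days.

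Macrophage genes divided into lower and not called. Of 21 macrophage and monocyte genes 11 were lower (8 with the day as a random block), with a median of -0.27. Itgam, the integrin subunit CD11b, changed by -1.16 ± 0.13. Ccr2, the receptor for Ccl2 on monocytes, changed by -0.90 ± 0.10, and Msr1, a scavenger receptor, by -0.92 ± 0.09. The list median on the late days was 2.44 above day 0, and 21 of its 21 members were then higher than on day 0 (27.5% of all genes were). Of 15 genes of lipid-loaded macrophages 5 were lower (2 with the day as a random block, 2 without day 3, 2 without day 10 and 3 without the left pool of day 7 or of day 10). Plin2, which coats lipid droplets, was at -0.81 ± 0.08, and Trem2, a lipid receptor, at -0.28 ± 0.08.

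Of 12 genes of resident macrophages 8 were lower (7 with the day as a random block and 4 without day 10). Cd163, the receptor for hemoglobin bound to haptoglobin, changed by -1.06 ± 0.12. Lyve1, a hyaluronan receptor of perivascular macrophages and lymphatic vessels, changed by -0.89 ± 0.09, and Vsig4, a complement receptor, by -0.78 ± 0.12. Hmox1, the heme oxygenase, stood at 12.75 and 12.83 on day 3, 12.24 and 12.55 on day 5, 11.99 and 12.21 on day 7 and 11.59 and 11.46 on day 10, a change of -0.78 ± 0.09. On the late days Hmox1 was 3.06 above day 0. Genes of the adaptive immune system are given beside the shares of all genes, 12.3% higher and 10.4% lower. Of 11 genes of antigen presentation by MHC class II 1 (9.09%) was lower, Ciita at -0.17 ± 0.05 (0 with the day as a random block, adjusted p = 0.298, limma). Among 16 T cell and natural killer genes 0 were lower and 3 (18.75%) were higher. These were the receptor subunit gene Cd3g (0.48 ± 0.12), Cd4 (0.44 ± 0.09) and Thy1 (0.36 ± 0.07), which is also in the fibroblast list below. Of these, 0 were called with the day as a random block, 0 without day 3 and 1 without day 10. In all, 6 T cell genes were higher without day 5, 5 without day 7 and 1 without the right pool of day 3. Of 9 B cell genes 0 were called by limma and 2 had an unadjusted p under 0.05.

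Interferon-stimulated genes, which encode antiviral proteins, were lower for 11 of 13 members, with a median of -0.60. This count was 11 with the day as a random block and 6 without day 3. Mx1, an antiviral GTPase, stood at 8.86 and 8.66 on day 3, 8.50 and 8.54 on day 5, 7.76 and 7.88 on day 7 and 7.61 and 7.71 on day 10. It changed by -0.90 ± 0.10 (adjusted p = 3.6e-05, limma), with every late value below every early one. The largest median step of the list was that from day 5 to day 7, at -0.46. Oas2, which senses double-stranded RNA, changed by -0.81 ± 0.09 and Rsad2, which encodes viperin, by -0.80 ± 0.11. The 11 called members had no overlap between early and late arrays.

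The regions before the starts of 2 of these genes are shown because interferon-stimulated genes share a known control element, to which the factors STAT and IRF bind. The pattern searched was GAAA, then 2 bases of any kind, then GAAA again, on both strands (TTTC, 2 bases, TTTC on the other), in the 250 bases before each RefSeq start of build GRCm38.p6, and matches are in capitals. Ifit1 lies on chromosome 19 (chr19:34640639-34640888, plus strand) and Rsad2 on chromosome 12 (chr12:26456453-26456702, minus strand). The first match in each begins 104 and 120 bases before the start.
Ifit1: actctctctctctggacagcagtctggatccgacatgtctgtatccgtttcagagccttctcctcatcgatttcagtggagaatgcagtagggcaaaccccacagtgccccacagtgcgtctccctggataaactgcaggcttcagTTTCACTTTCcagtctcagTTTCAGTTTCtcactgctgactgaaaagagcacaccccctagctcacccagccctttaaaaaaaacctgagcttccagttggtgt
Rsad2: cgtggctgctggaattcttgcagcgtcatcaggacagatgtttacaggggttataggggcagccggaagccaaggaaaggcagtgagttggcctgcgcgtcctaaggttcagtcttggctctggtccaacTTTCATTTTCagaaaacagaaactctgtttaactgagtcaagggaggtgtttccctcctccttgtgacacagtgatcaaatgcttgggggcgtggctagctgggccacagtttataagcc
Of the 13 measured members 9 had a promoter in the RefSeq table and 5 of these held a match, against 936 of all 27025 genes with such a window (3.46%) and 2.98% of the 32851 windows. The sequences are described here and no binding was measured.

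Genes that low oxygen induces fell together with those of glucose uptake. Of 13 such genes 12 were lower, with a median of -0.70 (7 with the day as a random block and 8 without day 3). Slc2a1, the glucose transporter GLUT1, stood at 12.98 and 13.07 on day 3, 12.13 and 12.14 on day 5, 11.45 and 11.59 on day 7 and 11.04 and 10.99 on day 10. It fell by 1.31 ± 0.05 on the log2 scale (adjusted p = 5.9e-08, limma), and its 4 day means fell in the order of the days. Adm, which encodes the vessel-dilating peptide adrenomedullin, changed by -1.14 ± 0.06. Hk2, the inducible hexokinase, changed by -0.85 ± 0.12 with overlapping groups. The list made its largest median step from day 3 to day 5, at -0.78. Of 12 genes of oxidative stress and metallothioneins 10 were lower, with a median of -0.64 (7 with the day as a random block). Slc7a11, the cystine transporter, changed by -1.48 ± 0.17, the metallothionein gene Mt1 by -0.93 ± 0.08 and Srxn1, which repairs peroxiredoxins, by -0.77 ± 0.05.

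Stress and growth programmes of protein synthesis were lower as well, by smaller amounts. Of 21 genes of the unfolded protein response and endoplasmic reticulum chaperones 19 were lower, with a median of -0.31. Hspa5, the main chaperone of that compartment, changed by -0.58 ± 0.07, and its partner Sdf2l1 by -0.91 ± 0.06. Only 1 of the 19 was called with the day as a random block, 3 without day 3 and 7 without day 10, and 10 to 15 without any 1 array, the fewest without the right pool of day 3. Of 28 ribosome biogenesis genes 16 were lower (1 with the day as a random block, 3 without day 3, 1 without day 10 and 10 without the right pool of day 5 or the left pool of day 7), among them the nucleolar helicase gene Ddx21 at -0.48 ± 0.07. Of 29 cytosolic ribosomal protein genes 0 were called by limma and 1 had an unadjusted p under 0.05, with a median of 0.04. Among 15 early response transcription factor genes 9 were lower (6 with the day as a random block), with Fosl1 at -1.19 ± 0.10 and Myc, which drives growth and ribosome production, at -0.77 ± 0.07.

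The lower calls among cell division genes rested on day 10. Of 28 DNA replication genes 12 (42.9%) were lower, with a median of -0.24, against 10.4% of all genes. Of 27 mitosis genes 4 (14.8%) were lower, near the share of all genes, with a median of -0.21. The counts were 0 and 0 without day 10, 25 and 20 without day 7, 4 and 4 without day 3, 7 and 0 without day 5, and 0 and 0 with the day as a random block. Leaving out any 1 array gave 4 to 15 replication genes, the fewest without the right pool of day 5 or the left pool of day 7, and 0 to 8 mitosis genes, with 0 without these or the right pool of day 10. Mcm5, a subunit of the replicative helicase, stood at 10.31 and 10.46 on day 3, 10.51 and 10.69 on day 5, 10.30 and 10.71 on day 7 and 9.66 and 9.92 on day 10. Its day 7 values spanned the early range and its day 10 values lay below it. The median step from day 7 to day 10 was -0.44 for replication and -0.63 for mitosis genes, and 9 and 13 members were then lower, against 1% of all genes. On the late days the medians were 0.94 and 2.09 above day 0. Cdkn1c, the cell cycle inhibitor p57, went the other way at 1.29 ± 0.07, and Ccnd3, the cyclin D3 of differentiating muscle, was at 0.38 ± 0.08.

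Among the rises, Ptn was the largest. It encodes pleiotrophin, a heparin-binding growth factor. Its log2 signal was 7.54 and 7.63 on day 3, 8.77 and 8.82 on day 5, 10.13 and 10.01 on day 7 and 10.79 and 10.91 on day 10, and every late value lay above every early one. The rise was 4.82-fold, 2.27 ± 0.07 on the log2 scale (SE from the spread within days, n = 4 arrays against 4). Its adjusted p was 1.3e-08, and 0.0073 with the day as a random block (limma). Prss35, a secreted protein of the serine protease family, stood at 6.59 and 7.19 on day 3, 8.16 and 8.18 on day 5, 9.11 and 9.08 on day 7 and 10.34 and 10.44 on day 10. It changed by 2.21 ± 0.12, and the day 3 arrays were the lowest. Atp1b4 belongs by sequence to the beta subunits of the sodium pump but acts in the nuclear envelope of muscle, and it stood at 8.67 and 8.17 on day 3, 9.60 and 9.13 on day 5, 10.93 and 10.25 on day 7 and 11.23 and 11.63 on day 10. It changed by 2.12 ± 0.17.

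Among the other leading rises, Nrk, a kinase gene, changed by 1.97 ± 0.12 and made its largest step from day 7 to day 10 (1.34). C1qtnf3, a secreted relative of adiponectin, rose 4-fold. Itm2a, a membrane protein gene of differentiating cells, changed by 1.90 ± 0.08, and Pamr1, which encodes a peptidase domain protein of muscle, by 1.88 ± 0.08. Zdbf2, an imprinted zinc finger gene, changed by 1.78 ± 0.11. On day 14 Nrk was 0.53 and Pamr1 0.48 above the late days, while Ptn was -0.24 relative to them.

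All 15 developmental contractile genes were higher, with a median of 1.09 (12.3% of all genes were higher). Myh3, the embryonic myosin heavy chain, stood at 9.34 and 9.41 on day 3, 11.71 and 11.80 on day 5, 12.30 and 12.14 on day 7 and 12.52 and 12.49 on day 10. It rose by 1.80 ± 0.12 (adjusted p = 7.2e-07, limma), its largest step was that between days 3 and 5 (2.38), and with the day as a random block its adjusted p was 0.0685 (limma). Myh8, the neonatal myosin, stood at 8.98 and 8.89 on day 3, 10.96 and 10.95 on day 5, 11.86 and 11.31 on day 7 and 12.27 and 12.47 on day 10 and rose by 2.03 ± 0.10, with an adjusted p of 0.0359 with the day as a random block (limma). Actc1, the actin of heart and developing muscle, changed by 1.37 ± 0.07, and the slow or cardiac troponin genes Tnnc1 and Tnni1 by 1.24 ± 0.20 and 1.18 ± 0.14. With the day as a random block 7 of the 15 were called, and 6 were without day 3. No 1 array changed the count of 15. The muscle fibre markers given above, of which 1 of 6 was called higher, had a median of 0.09.

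The regions before the starts of 2 of these genes are shown because the myogenic factors bind CAGCTG, a form of the E-box, and both encode subunits of the acetylcholine receptor that fetal muscle makes. The 6 letters read the same on both strands, and matches are in capitals. Chrng lies on chromosome 1 (chr1:87205561-87205810, plus strand) and Chrna1 on chromosome 2 (chr2:73580339-73580588, minus strand). The matches of Chrng begin 155 and 132 bases before the start and those of Chrna1 92 and 44.
Chrng: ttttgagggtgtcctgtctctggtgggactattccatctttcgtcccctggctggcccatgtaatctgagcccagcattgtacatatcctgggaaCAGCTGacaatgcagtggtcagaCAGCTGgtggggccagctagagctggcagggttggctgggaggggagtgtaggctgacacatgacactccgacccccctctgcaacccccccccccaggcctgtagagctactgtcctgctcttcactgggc
Chrna1: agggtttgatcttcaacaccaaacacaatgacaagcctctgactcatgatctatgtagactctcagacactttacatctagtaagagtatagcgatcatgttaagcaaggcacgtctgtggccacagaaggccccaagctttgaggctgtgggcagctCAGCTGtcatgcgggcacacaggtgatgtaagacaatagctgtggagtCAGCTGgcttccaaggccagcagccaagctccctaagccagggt
Of the 15 developmental genes 13 had a promoter in the RefSeq table and 7 of these held a match in the 250 bases. Among all genes 3979 of 27025 (14.7%) held a match, as did 4271 of all 32851 windows. Of the members with values given above, Tnni1 held a match, while Myh3, Myh8, Actc1 and Tnnc1 had 0 matches. Chrng rose by 0.75 ± 0.07 (adjusted p = 1.5e-05, limma), its step between days 3 and 5 was 1.21, and its adjusted p with the day as a random block was 0.129 (limma).

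Myogenic and junctional genes were higher in large part, and the junctional list shares Chrng, Chrna1 and Chrnd with the developmental one. Of 20 myogenic factors and fusion genes 12 were higher and 2 lower (6 and 0 with the day as a random block, 6 and 0 without day 3), with a median of 0.32. Mymk, the membrane activator of myoblast fusion, changed by 1.12 ± 0.07, Megf10, a receptor of satellite cells, by 1.02 ± 0.07, and Heyl, a target of Notch signalling, by 0.83 ± 0.06. Myog, the factor of terminal myogenic differentiation, stood at 9.51 and 9.42 on day 3, 10.03 and 9.99 on day 5, 10.44 and 10.54 on day 7 and 10.41 and 10.35 on day 10. It rose by 0.70 ± 0.07, and its 2 values on day 10 lay just below those of day 7. Pax7, the marker of satellite cells, changed by 0.38 ± 0.06, with an adjusted p of 4.2e-04 and of 0.0679 with the day as a random block (limma). Of 14 neuromuscular junction genes 10 were higher and 1 lower (5 and 0 with the day as a random block and 4 and 0 without day 3). Chrne, the receptor subunit of adult junctions, was highest among them at 0.94 ± 0.11, yet on the late days it was still -1.40 relative to day 0, where Chrng was 2.93.

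**Figure D2:**
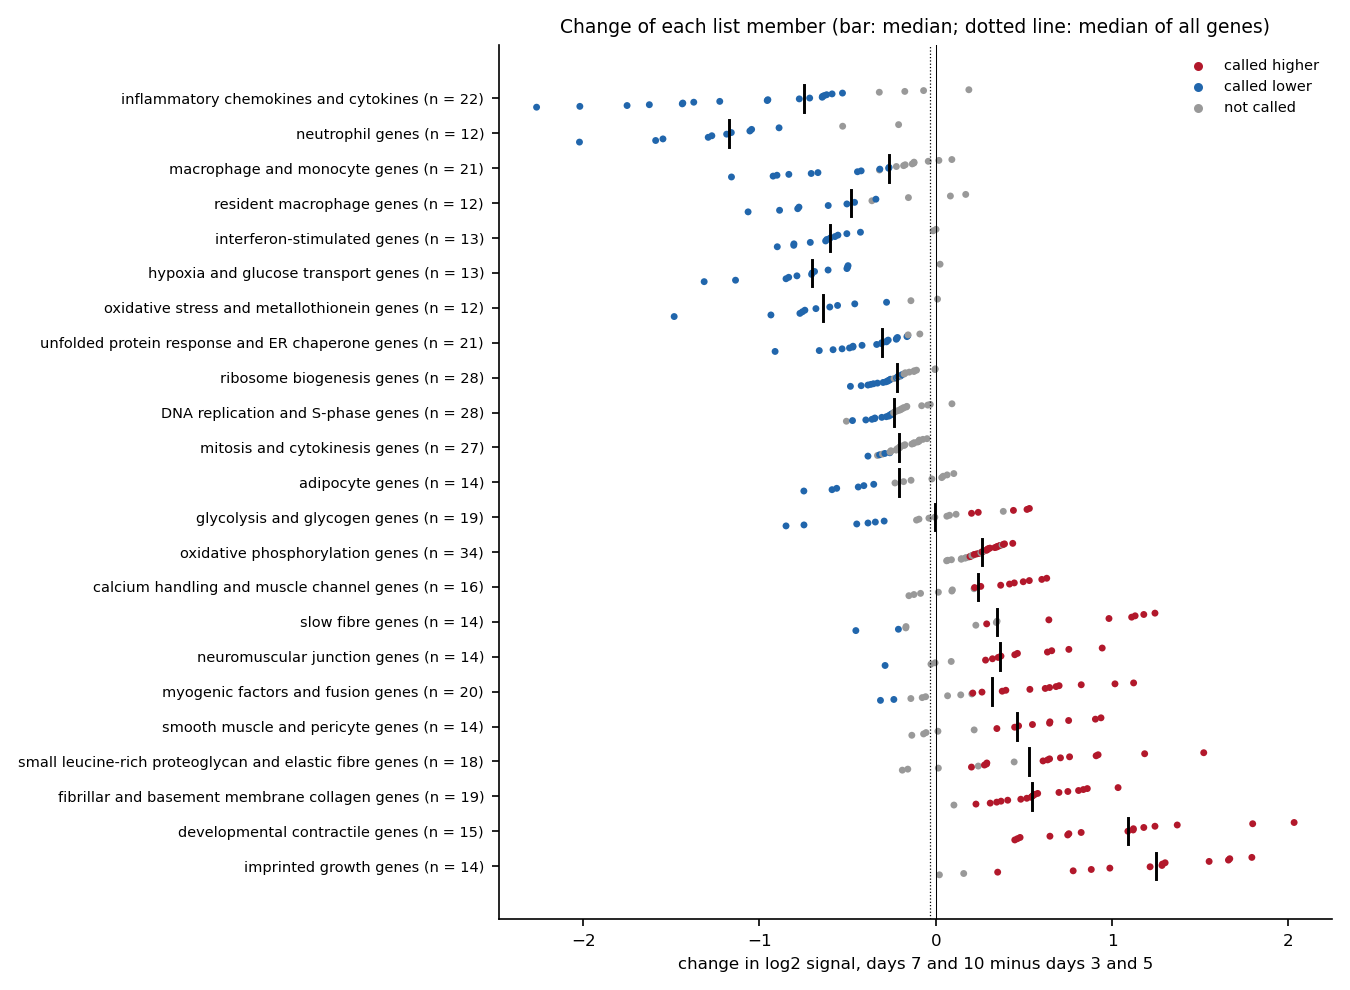
Change in log2 signal from days 3 and 5 to days 7 and 10 (horizontal axis) of each measured member of 23 gene lists (vertical axis). Red points are called higher, blue lower and grey not called, black bars are list medians and the dotted line is the median of all genes; all 15 developmental contractile genes are red and 18 of 22 inflammatory genes are blue.

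Imprinted genes, which are read from only the maternal or the paternal copy and of which many promote or restrain fetal growth, were among the leading rises. Of 14 such genes 12 were higher and 0 lower, with a median of 1.25 (9 with the day as a random block, and 12 without any 1 array). Dlk1, a membrane relative of Notch ligands, stood at 8.51 and 8.89 on day 3, 9.40 and 9.13 on day 5, 10.12 and 9.86 on day 7 and 11.47 and 11.15 on day 10. It rose by 1.67 ± 0.10 and every late value lay above every early one, with the highest values on day 10. Igf2, the fetal insulin-like growth factor, rose by 1.66 ± 0.09, its largest step was that between days 3 and 5 (2.30), and its adjusted p with the day as a random block was 0.0889 (limma). Plagl1, a zinc finger factor of the imprinted network, rose by 1.79 ± 0.10, and Mest by 1.28 ± 0.09.

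Dlk1 lies at one end of an imprinted locus on chromosome 12 that ends with Dio3, the gene of the deiodinase that inactivates thyroid hormone. Between them the maternal chromosome gives rise to long noncoding RNAs, Meg3 and Rian, that carry many small RNA genes. The locus was chosen after its values were seen, and its members are all those that lie between Dlk1 and Dio3 in the RefSeq order. Of 103 such genes 48 were tested, 44 were higher, 1 was lower and 3 were not called. The lower one was Dio3 itself, at -0.54 ± 0.07. Of the 40 microRNA genes tested 37 (92.5%) were higher, with a median of 0.88, and 27 with the day as a random block. Meg3 stood at 9.52 and 9.59 on day 3, 11.05 and 10.91 on day 5, 11.50 and 11.23 on day 7 and 12.20 and 12.33 on day 10 and rose by 1.55 ± 0.07 (adjusted p = 7.2e-08, limma). The 257 microRNA genes elsewhere in the genome had a median of -0.01. Of these 33 (12.8%) were higher and 4 (1.56%) lower, against 12.3% and 10.4% of all genes.

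A probe set of a microRNA gene reads any RNA that holds the hairpin, long precursors included, and the mature microRNA was not measured. Signals were low: the early mean of 22 of the 40 genes lay below 6.95, the 25th percentile of all genes, and the late mean of 10 lay below the corresponding 6.89. The microRNA genes with the largest changes were Mir376b (1.94 ± 0.13), Mir379 (1.89 ± 0.10), Mir382 (1.78 ± 0.14) and Mir377 (1.75 ± 0.08). Mir376b stood at 4.57 and 4.63 on day 3, 5.48 and 5.52 on day 5, 6.54 and 6.37 on day 7 and 7.35 and 7.71 on day 10, and the groups did not overlap. All 40 genes had mature sequences in the RefSeq table, 76 in all with 74 distinct seeds. The 2 seeds that occur more than once are shown with the mature sequences of the other leading genes, with the seed (bases 2 to 8) in capitals.
miR-379-3p: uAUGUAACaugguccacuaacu
miR-411-3p: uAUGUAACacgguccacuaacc
miR-376b-5p: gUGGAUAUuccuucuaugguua
miR-376c-5p: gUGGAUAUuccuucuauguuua
miR-382-5p: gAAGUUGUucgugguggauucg
miR-377-3p: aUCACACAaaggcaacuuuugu
These are encoded on the plus strand of GRCm38.p6 at chr12:109709102-109709123, chr12:109710225-109710246, chr12:109723471-109723492, chr12:109722733-109722754, chr12:109733781-109733802 and chr12:109740553-109740574, in the order given. Mir411 changed by 1.56 ± 0.12 and Mir376c by 0.87 ± 0.11. On day 14, 28 of the 40 genes were higher again than on the late days (8.37% of all genes were).

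**Figure D3:**
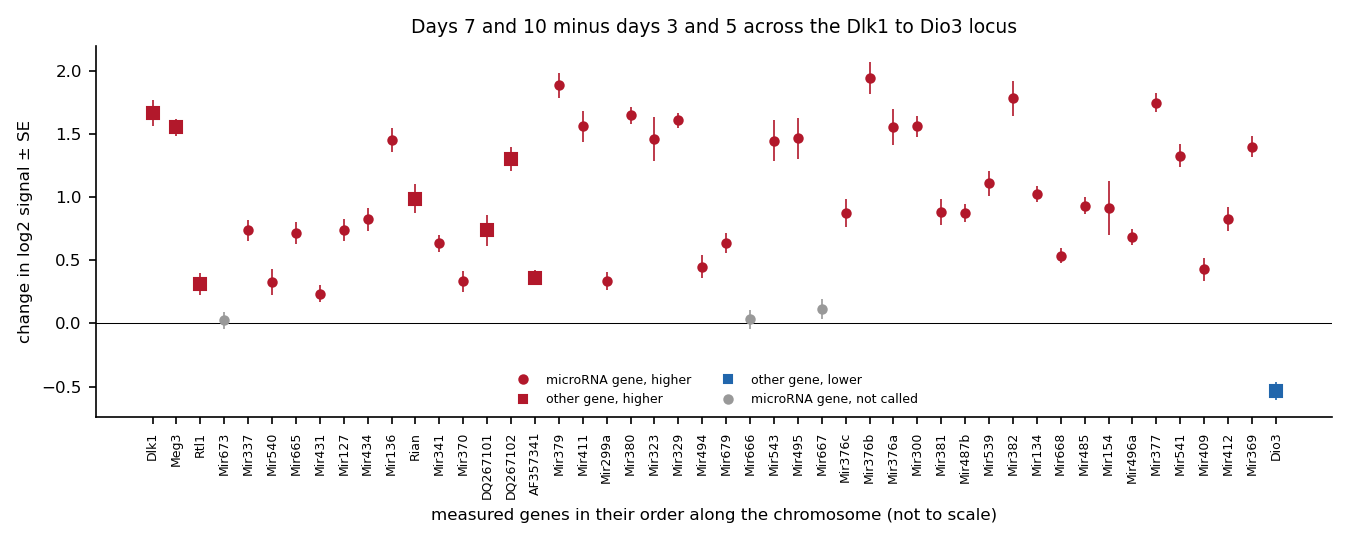
Change in log2 signal from days 3 and 5 to days 7 and 10 with its standard error (vertical axis) for the 48 measured genes between Dlk1 and Dio3, in their order along the chromosome (horizontal axis, not to scale). Circles are microRNA genes and squares other genes; 44 are higher (red), 3 microRNA genes near 0 are not called (grey) and Dio3 is lower (blue).

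Outside the locus, the largest change of a microRNA gene was that of Mir206, which is made in skeletal muscle and promotes differentiation. It stood at 6.06 and 5.91 on day 3, 7.20 and 7.14 on day 5, 7.98 and 7.63 on day 7 and 8.02 and 7.86 on day 10 and rose by 1.29 ± 0.12 (adjusted p = 1.0e-05, limma). Its 3p product is shown because it is the mature form known for this role, from the plus strand of GRCm38.p6 at chr1:20679055-20679076.
miR-206-3p: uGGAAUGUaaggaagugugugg
Among the 76 mature sequences of the imprinted locus 0 carry that seed. Mir142, a microRNA gene of blood cells, was lower at -0.86 ± 0.10.

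Collagen genes rose nearly as a whole. Of 19 fibrillar and basement membrane collagen genes 18 were higher and 0 lower, with a median of 0.55 (7 with the day as a random block and 7 without day 3). Col12a1, a collagen that coats fibrils in tendon and connective tissue, stood at 11.21 and 11.45 on day 3, 12.36 and 12.47 on day 5, 12.68 and 12.84 on day 7 and 13.04 and 13.07 on day 10 and rose by 1.03 ± 0.14. Col14a1, of the same fibril-associated class, changed by 0.86 ± 0.08, and Col11a1, a minor fibrillar collagen, by 0.84 ± 0.07. The main fibrillar collagen genes rose as well, Col1a1 by 0.48 ± 0.06 and Col3a1 by 0.41 ± 0.06, both with overlap between early and late arrays. Their adjusted p values with the day as a random block were 0.144 and 0.148 (limma). The list made a median step of 0.69 from day 3 to day 5, of 0.14 to day 7 and of 0.22 to day 10.

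Small leucine-rich proteoglycan and elastic fibre genes, whose products space and bind collagen fibrils or build microfibrils, were higher for 13 of 18 members and lower for 0 (7 higher with the day as a random block, 7 without day 3 and 7 without day 10). Mfap4, a microfibril protein gene, changed by 1.52 ± 0.09, Kera, which encodes keratocan, by 1.18 ± 0.10, Aspn, which encodes asporin, by 0.92 ± 0.08, and Fmod, which encodes fibromodulin, by 0.63 ± 0.10. Fbn2, the fibrillin of fetal microfibrils, rose by 1.63 ± 0.09. On day 14, 8 members of the list were higher than on the late days, Kera by 0.94.

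Tendon and cartilage genes were higher more often than lower. Tnmd, the tendon membrane protein tenomodulin, stood at 9.28 and 9.51 on day 3, 10.24 and 10.32 on day 5, 11.49 and 11.51 on day 7 and 12.27 and 12.55 on day 10. It rose by 2.11 ± 0.11, with every late value above every early one. Acan, the cartilage proteoglycan aggrecan, rose by 1.23 ± 0.14, while Prg4, the joint lubricant lubricin, fell by 1.45 ± 0.08 on the log2 scale with no overlap. In all 7 of 14 tendon and cartilage genes were higher and 1 lower (3 and 1 with the day as a random block, 4 and 1 without day 3, 4 and 1 without day 10, and 4 and 1 without the left pool of day 7). The mean signal of the tendon markers Tnmd and Scx was 9.72 to 10.24 on the early arrays and 10.90 to 11.45 on the late arrays. Whether the share of tendon in the dissected muscle differed between days was not tested.

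Fibroblast genes were higher for 11 of 18 members and lower for 1 (5 and 1 with the day as a random block and 7 higher without day 3). Their changes ran from -0.78 to 1.61. Of the 4 fibroblast markers Pdgfra, Dcn, Lum and Col1a1, 2 were called higher and 0 lower, with changes from -0.20 to 0.76. Lrrc15, a membrane protein of activated fibroblasts, rose by 1.61 ± 0.10, and Sfrp4, a secreted Wnt inhibitor, by 1.17 ± 0.18 with overlapping groups. The enzymes that mature and crosslink collagen did not move as 1 group: of 16, 6 were higher, with the prolyl hydroxylase subunit gene P4ha3 at 0.93 ± 0.06, and 5 lower, with the transglutaminase gene Tgm2 at -0.75 ± 0.05 and Loxl4 at -0.60 ± 0.08. Without day 3, 1 was higher, and without day 10, 3 were lower. With the day as a random block 0 were higher and 3 lower. Matricellular genes were divided as well, 5 higher and 4 lower of 17 (1 higher without day 3, 8 higher without day 5, 3 and 2 without day 10, and 1 and 2 with the day as a random block). Has2, the enzyme that makes hyaluronan, fell by 0.77 ± 0.11 on the log2 scale. Postn, which encodes periostin, rose by 0.57 ± 0.14.

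Matrix proteases and their inhibitors were lower for 10 and higher for 6 of 20 (7 and 1 with the day as a random block). Adam8, a membrane protease of leukocytes, changed by -1.02 ± 0.10, and Timp1, an inhibitor of metalloproteinases, by -0.79 ± 0.09. Mmp13, a collagenase, rose by 1.12 ± 0.23 and stood at 9.53 and 10.60 on day 3, 10.70 and 10.67 on day 5, 11.77 and 11.04 on day 7 and 11.61 and 11.54 on day 10. The left pool of day 3 was the lowest of the early arrays by a wide margin. Timp1 remained 4.54 above day 0 on the late days.

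Growth factor genes moved in both directions. In the insulin-like growth factor and myostatin axis 7 of 18 genes were higher and 5 lower (1 and 3 with the day as a random block, 3 and 4 without day 3 and 4 and 4 without day 10). Igf1, which promotes muscle growth, rose by 0.68 ± 0.06. Inhba, which encodes the activin A subunit, fell by 1.06 ± 0.11 on the log2 scale. Mstn, which encodes the growth inhibitor myostatin, was 0.40 ± 0.11 higher (adjusted p = 0.0163, and adjusted p = 0.149 with the day as a random block, limma) and still -2.67 relative to day 0. Of 25 TGF-beta, BMP and Wnt genes 13 were higher and 3 lower (3 and 0 with the day as a random block, 4 and 2 without day 3 and 7 and 1 without day 10). Dkk3, a secreted protein of the Dickkopf family, rose by 1.30 ± 0.07, and the growth factor gene Tgfb3 by 0.70 ± 0.08.

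Genes of mitochondrial energy supply rose by small amounts. Of 34 oxidative phosphorylation genes 20 were higher and 0 lower, with a median of 0.26 (5 with the day as a random block, 12 without day 5 and 9 without day 10). Cox4i1, a cytochrome oxidase subunit, stood at 11.03 and 10.90 on day 3, 11.02 and 10.82 on day 5, 11.31 and 11.28 on day 7 and 11.36 and 11.39 on day 10 and rose by 0.39 ± 0.07 (adjusted p = 0.00186, limma). The median step was -0.09 from day 3 to day 5 and 0.30 from day 5 to day 7. On the late days the list was still -0.78 relative to day 0, and all 34 members were lower than on day 0 (39.5% of all genes were). Citric acid cycle genes were higher for 7 of 19 (1 with the day as a random block, 3 without day 5, 2 without day 10 and 4 without the right pool of day 5 or the left pool of day 7) and fatty acid oxidation genes for 8 of 20 (1, 5, 1 and 4 under the same settings, 2 without day 3, 4 without the left pool of day 10 and 5 without the right pool of day 3 or of day 10). Pdk4, the kinase that shuts off pyruvate oxidation, was lower at -0.76 ± 0.07.

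Glycolysis genes were divided, 5 higher and 6 lower of 19 (0 and 0 with the day as a random block, 1 and 1 without day 3, 0 and 4 without day 10, and as few as 1 higher without 1 array, the left pool of day 7, or 2 without the right pool of day 3 or of day 5 or either pool of day 10). Hk2 and Gbe1, the glycogen branching enzyme, were at -0.85 ± 0.12 and -0.75 ± 0.11. Of 16 calcium handling and channel genes 9 were higher (3 with the day as a random block, 6 without day 3 and 4 without day 10), with Casq1, the calcium store protein of fast fibres, at 0.60 ± 0.08. Adult fast fibre genes were higher for 7 and lower for 1 of 18 (1 and 0 with the day as a random block, and 4 and 4 higher without day 3 or day 10). Mylpf, the fast regulatory light chain, was at 0.50 ± 0.11. The 6 fibre markers had a median of 0.09 over the same comparison, and the part of the share of fibre RNA in these rises was not tested.

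Slow fibre genes were higher for 7 and lower for 2 of 14 (6 and 0 with the day as a random block, 2 and 0 without day 3). The troponin genes Tnnc1, Tnni1 and Tnnt1 led with 1.24 ± 0.20, 1.18 ± 0.14 and 1.13 ± 0.19, and the first pair of these is also in the developmental list. The mean signal of the slow muscle markers Myh7, Tnnt1 and Myl2 was 8.90 to 9.85 on the early arrays and 9.68 to 10.30 on the late arrays. Of these 3 only Tnnt1 was called higher. On the late days their median was -0.77 relative to day 0, with 1 above and 2 below it. Smooth muscle and pericyte genes were higher for 9 of 14 (3 with the day as a random block and 4 without day 3). This list shares Acta2 with the developmental list and Notch3 with the myogenic one. The actin-binding protein genes Tagln and Cnn1 were at 0.94 ± 0.12 and 0.91 ± 0.08, and Rgs5, a signalling regulator of pericytes, at 0.75 ± 0.08. Of the smooth muscle markers Acta2, Tagln and Myh11, Myh11 was not called. Of 18 endothelial genes 3 (16.7%) were higher and 3 (16.7%) lower, against 12.3% and 10.4% of all genes, with a median of 0.0001. With the day as a random block the counts were 0 and 2. Higher ones numbered 0 without day 3, 0 without day 10, 6 without day 5, and 0 to 1 without any 1 of the 8 arrays. Apln, which encodes the vessel peptide apelin, fell by 0.82 ± 0.07 on the log2 scale, and Angpt2, which loosens vessels, was at -0.52 ± 0.10.

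Adipocyte genes were lower for 6 of 14 (4 with the day as a random block and 4 without day 10), with Plin4 at -0.75 ± 0.08, the lipid droplet gene Cidec at -0.59 ± 0.09 and Adipoq, which encodes adiponectin, at -0.56 ± 0.17 with overlapping groups. Adipoq made steps of 0.87 to day 5 and of -1.13 to day 7, so its early arrays differed widely. The atrophy ligase genes Fbxo32 and Trim63, which mark proteins of muscle for breakdown, were lower at -0.77 ± 0.09 and -0.68 ± 0.11, and both already lay below day 0 on the early days (-1.08 and -0.76). Of the 17 genes of their list 7 were lower and 3 higher (2 and 1 with the day as a random block and 2 lower without day 3). Ddit4l, an inhibitor of mTORC1, was among the higher at 0.69 ± 0.09.

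The early and late days are joined by 3 steps between sampled days, each of 2 arrays against 2. From day 3 to day 5, 934 genes (4.68%) were higher and 379 (1.9%) lower. From day 5 to day 7, the step between the 2 windows, 80 (0.401%) were higher and 125 (0.627%) lower. From day 7 to day 10, 186 (0.933%) were higher and 200 (1%) lower. The groups differed in the step with the largest median. Hypoxia and developmental contractile genes made their largest median step before day 5 (-0.78 and 1.05). Inflammatory genes made theirs from day 5 to day 7 (-0.54), as did neutrophil (-0.65), interferon-stimulated (-0.46) and oxidative phosphorylation genes. Neutrophil genes also stepped by -0.49 from day 3 to day 5 and by -0.48 from day 7 to day 10. Mitosis genes stepped by 0.32 and then by -0.63. Neighbouring steps share the arrays of a day, and the differences between steps were not tested.

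**Figure D4:**
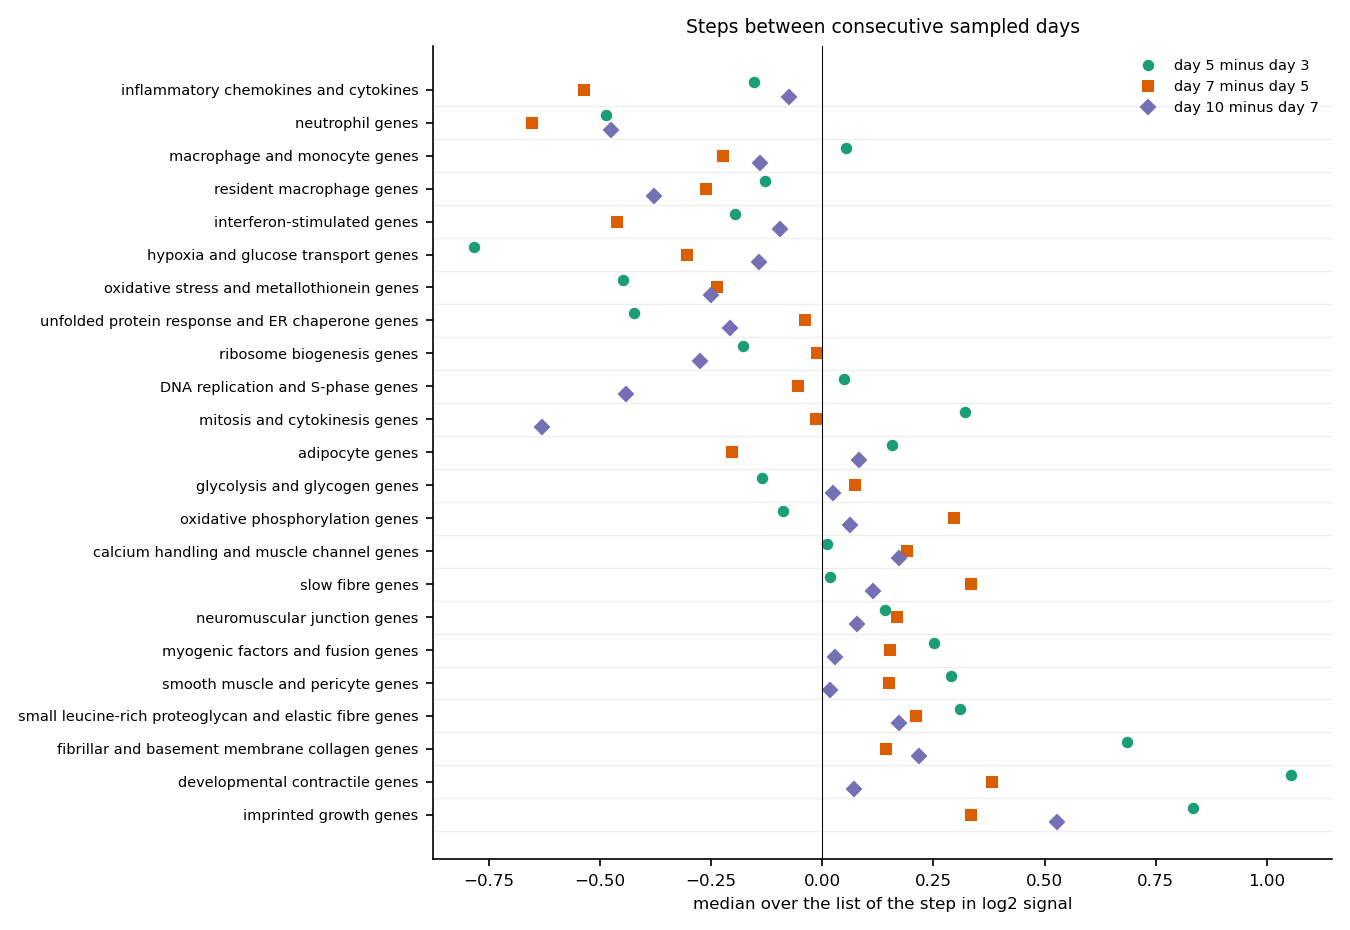
Median change in log2 signal (horizontal axis) of 23 gene lists (vertical axis) from day 3 to 5 (circles), day 5 to 7 (squares) and day 7 to 10 (diamonds). Squares lie furthest from 0 for inflammatory, neutrophil and interferon-stimulated genes, circles for hypoxia, collagen and developmental contractile genes, and diamonds for replication and mitosis genes.

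Against day 0, the late days had 5487 genes higher (27.5%) and 7878 lower (39.5%). The early and the late days are compared with the same 2 arrays of day 0, so their differences from it are given side by side only. Arg1 stood at 4.72 early and 2.29 late, Cxcr2 at 2.10 and 0.08, and Slc2a1 at 1.85 and 0.54. For Cxcr2 the late difference from day 0 was not called (adjusted p = 0.74, limma), nor was it for Serpinb2 (0.05, adjusted p = 0.814). Among the rises, Ptn stood at 0.58 and 2.85, Dlk1 at 0.32 and 1.99, and Atp1b4 at -0.46 and 1.66. By day 14, 1669 genes (8.37%) were higher and 2052 (10.3%) lower than on the late days. Arg1 was then -2.18 relative to the late days, Dlk1 1.29 and Tnmd 0.63.

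**Figure D5:**
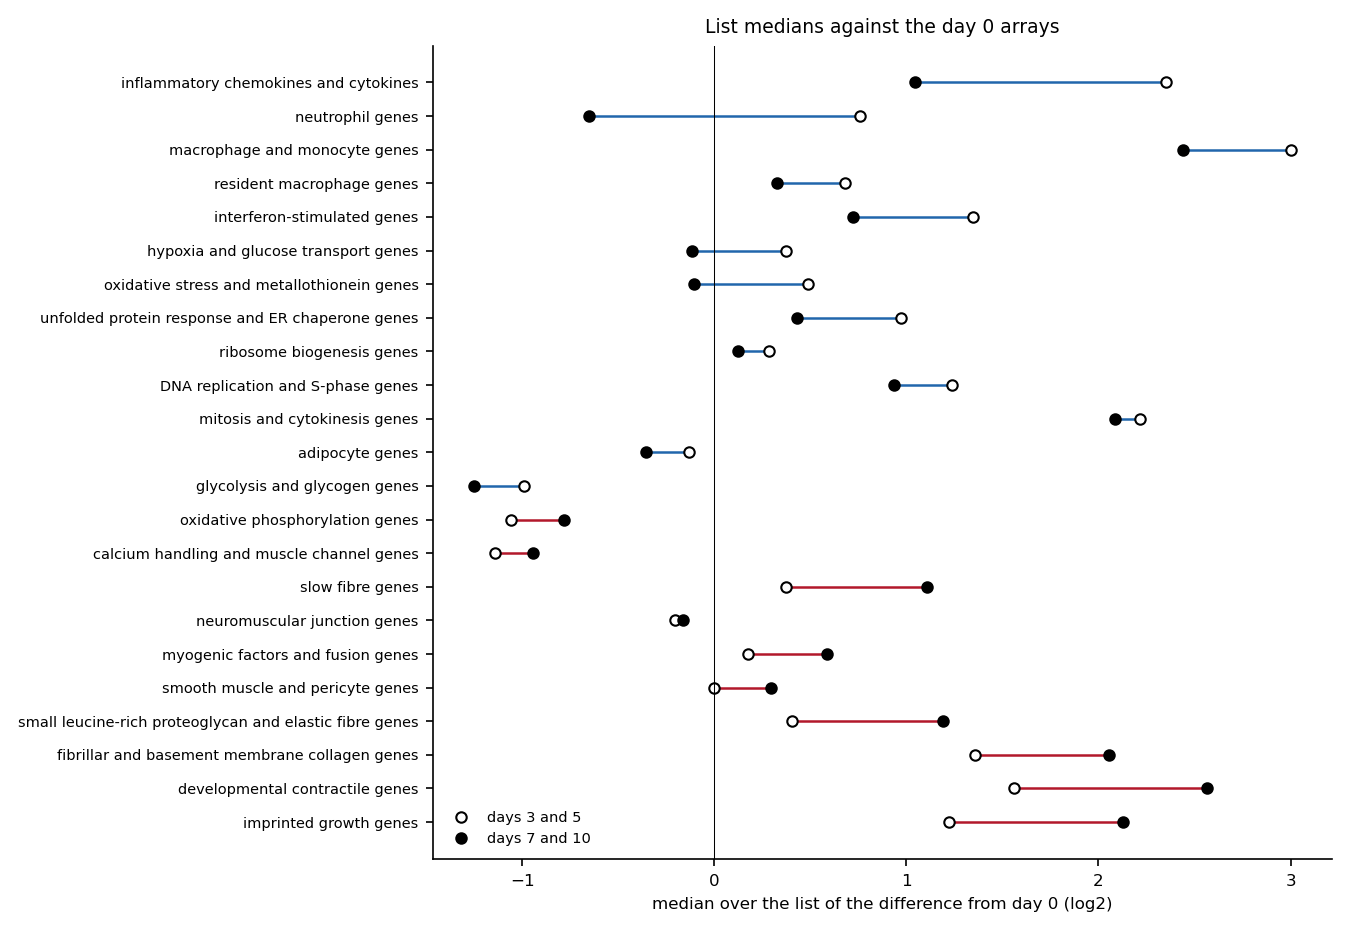
Median difference in log2 signal from the day 0 arrays (horizontal axis) of 23 gene lists (vertical axis) on days 3 and 5 (open circles) and days 7 and 10 (filled circles). Red lines join medians that moved up and blue lines those that moved down; the neutrophil median passes from 0.76 to -0.65, while the oxidative phosphorylation median moves from -1.06 to -0.78.

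The change was also compared between the left and right pools. Of 19938 genes 0 had a change that differed between sides at an adjusted p under 0.05 with limma, and 445 (2.23%) had an unadjusted p under 0.05. Of the genes with an adjusted p under 0.05 for the change itself, 0 moved in opposite directions on the left and the right. That count had little room to differ, because a gene whose sides move apart has a large spread within days. In the left and right pools Arg1 changed by -2.42 and -2.44, Ptn by 2.30 and 2.23, and Dlk1 by 1.84 and 1.49. Where both sides come from the same animals, this repeats the measurement but not the biological sample.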

How the data were processed

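Affymetrix Mouse Gene 1.0 ST arrays were deposited as a table of log2 signals per probe set, made by the authors with Partek software per the submitters' processing notes. The version, normalisation method and genome build are not given in the sources used here. Of 35557 probe sets 21789 had 1 gene symbol in the platform annotation, 1621 had several and 12147 had none. Probe sets with 1 symbol were used. Of the 999 genes with several probe sets, the one with the highest mean signal over the 14 arrays was kept, which left 19938 genes. Array medians ran from 7.91 to 7.97. Precision is limited by how few arrays there are.

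Each gene was fitted with limma 3.58.1 (R 4.3.3) as 7 day means over all 14 arrays with 7 residual degrees of freedom, and the mean of days 7 and 10 minus that of days 3 and 5 was tested with Benjamini-Hochberg adjustment over all genes. The fitting script was tested on simulated data. The comparison and the gene lists were chosen with earlier results of these data known. Genes named were, among called genes without overlap and without predicted, microRNA, small nucleolar RNA and receptor genes of smell, the 12 largest rises and falls, then the 3 largest called changes of each list (where fewer were called, the member with the highest signal) and a set chosen by name. Genes of the Dlk1 to Dio3 locus, other microRNA genes and the genes whose promoters are shown were chosen after their values were seen. Spp1, Ccnb1, Cdkn1a and H19 were not analysed here. Alternatives were another model, normalisation, filter or threshold, and leaving out an array or a day.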

Additional observations from a re-analysis of the deposited data

Results flagged for a closer look

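For 196 named genes, the 4 early and the 4 late values were each searched for a single array far from the other 3. This found 7 of 392 sets of 4, where chance gives about 1 in 20. In the early set, the left pool of day 5 was low for Cxcl5 (9.40), for the scavenger receptor gene Msr1 (11.26) and for Adam8 (11.29), and high for Ppargc1b (8.93), a regulator of mitochondrial genes. The left pool of day 3 was low for Mmp13 (9.53), and the right pool of day 3 was high for the noncoding RNA gene Gas5 (10.86). In the late set, the left pool of day 10 was low for Trem1 (6.97).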

How the results depend on the processing

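The counts of 2458 higher and 2079 lower genes moved by over 1.5 times under 6 of the alternatives. They were 1321 and 1164 with no day term, 587 and 605 with the day as a random block, 1564 and 1120 at an adjusted p under 0.01 (limma), 127 and 67 at 2-fold or more, 776 and 701 without day 3 and 1170 and 854 without day 10. Leaving out each array in turn gave 1773 to 2208 higher and 1434 to 1810 lower. With the side as a replicate block the counts were 2596 and 2218. Right-minus-left differences correlated between days at r of 0.084 to 0.354 across genes, but sides of different days come from different animals, so the block pairs no animals. With the lowest 25% of genes left out, the step from day 5 to day 7 held 128 higher and 201 lower genes, and 80 and 125 otherwise; the cause was not tested. Of 179 named calls, 108 were kept with the day as a random block, 125 without day 3 and 136 without day 10. The change of Thy1 was -0.0161 without day 3. Without day 10 the changes were 0.0275 for Anln, 0.0344 for Aurka, 0.218 for Idi1, 0.0590 for Cyp51 and 0.0161 for Mcm5, all of which had the other sign with it. Equal array medians moved the median change from -0.03 to -0.06.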

Other observations

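The genes below were picked from ranks 13 to 40 of the rises and of the falls after their values were seen. Slc5a7, the choline transporter of motor nerve endings, stood at 6.74 and 7.14 on day 3, 7.66 and 7.70 on day 5, 8.71 and 8.31 on day 7 and 8.81 and 9.19 on day 10, and it rose by 1.44 ± 0.12. Epha3, an ephrin receptor gene, rose by 1.71 ± 0.10, and Dcx, which encodes the microtubule protein doublecortin, by 1.33 ± 0.09. Mdk, which encodes midkine, the relative of pleiotrophin, rose by 1.43 ± 0.07, and Rspo2, an amplifier of Wnt signals, by 1.31 ± 0.10. Agtr2, the type 2 angiotensin receptor, rose by 1.30 ± 0.12, and Mfap2, a microfibril protein gene, by 1.42 ± 0.07. Among falls of these ranks, Car4, a carbonic anhydrase gene, changed by -1.40 ± 0.06, Clu, which encodes clusterin, by -1.36 ± 0.11, Thbd, which encodes thrombomodulin, by -1.21 ± 0.08, and F10, coagulation factor X, by -1.27 ± 0.07. For all genes of these ranks the early and late arrays did not overlap, which their choice required.

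Further lists are given by their counts, against 12.3% of all genes higher and 10.4% lower. Chemokines of later recruitment had 2 higher and 5 lower of 13, complement genes 3 and 4 of 14, and heme and iron genes 2 and 6 of 11. Lysosomal genes had 1 and 7 of 16, proteasome genes 0 and 8 of 30, and serine and one-carbon enzymes 1 and 7 of 12. Cholesterol synthesis genes had 1 and 4 of 15, stretch response genes 1 and 3 of 14, and clock genes 2 and 3 of 14. Mitochondrial regulators had 2 and 1 of 14, inhibitors of cyclin-dependent kinases with D cyclins 5 and 1 of 14, and Schwann cell genes 1 and 2 of 10. Mast cell genes had 0 and 2 of 9, keratinocyte genes 1 and 0 of 11, and red blood cell genes 0 and 1 of 5. Both small nucleolar RNA host genes were not called. With the day as a random block the counts, higher and lower, were 0 and 3 for later chemokines, 0 and 3 for complement, 0 and 3 for heme and iron, 1 and 0 for lysosomal and 0 and 0 for proteasome genes. They were 0 and 1 for serine and one-carbon enzymes, 0 and 0 for cholesterol synthesis, 1 and 0 for stretch response, 1 and 1 for clock genes, 0 and 0 for mitochondrial regulators and 1 and 0 for kinase inhibitors with D cyclins. They were 0 and 1 for Schwann cell, 0 and 1 for mast cell, 1 and 0 for keratinocyte and 0 and 1 for red blood cell genes.

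Several of these counts also moved by over 1.5 times without a single day or array. Without day 3 the lower genes were 0 for lysosomal, 0 for proteasome, 2 for serine and one-carbon, 0 for cholesterol, 0 for stretch response and 1 for clock genes, and the higher ones 0 for complement and 1 for cyclin-dependent kinase inhibitors. Without day 10 the lower genes were 3 for later chemokines, 3 for heme and iron, 0 for lysosomal, 3 for proteasome, 2 for serine and one-carbon, 0 for cholesterol and 0 for stretch response genes, and the higher ones 1 for complement genes and 2 for kinase inhibitors. Without day 7 there were 10 lower cholesterol genes, and stretch response genes had 7 lower without day 5 and 5 without day 7. Of single arrays, complement genes had 1 higher without either pool of day 3 or day 5 or the left pool of day 7 or day 10. Lower cholesterol genes numbered 1 without the right pool of day 3 or day 5 or the left pool of day 7 or day 10, and 0 without the right pool of day 10. Lower proteasome genes numbered 5 without the right pool of day 3 or the left pool of day 5 or day 7, and 4 without the right pool of day 10. Lower lysosomal genes numbered 4 without the right pool of day 3 or the left pool of day 7, and 3 without the right pool of day 5. Without the right pool of day 5 or the left pool of day 7, lower serine and one-carbon genes numbered 4, and lower stretch response genes 5 and 6.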
